A study of Mus musculus with 6 samples.

Results

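The 10 genes described here encode transcription factors of the melanocyte lineage: Mitf, Sox10, Pax3, Tfap2a, Tfap2b, Zeb1, Zeb2, Sox5, Sox9 and Nfib. They were taken as a list of names, 10 of the 21368 genes that could be named on the arrays, and every probe whose RefSeq accession belongs to one of them was kept, 19 probes in all. Melanocyte stem cells, the reserve of pigment cells in the hair follicle, had been sorted from the skin of male mice as GFP-positive cells with low side scatter, and their RNA was hybridised to 1-colour Agilent mouse arrays. The WT group had 3 arrays and the K14-SCF Tg group 3. In the K14-SCF Tg line the keratin 14 promoter makes the epidermis produce SCF, the ligand that activates KIT. This promoter is active in basal keratinocytes and not in pigment cells, so the transgene is expressed outside the pigment lineage. The labels give no age, do not name the gene that carries the GFP, and do not say whether animals were pooled or whether the replicates are separate animals, so the p-values cover only the variation among these 6 arrays, part or all of which may be technical.

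Pigment cells arise from the neural crest, and a small circuit of transcription factors holds their identity. SOX10, an HMG-box protein of the SOXE group, and PAX3, a paired-box protein, switch on the melanocyte promoter of Mitf, whose product, a basic helix-loop-helix protein, drives the melanin genes. The AP-2 proteins TFAP2A and TFAP2B work beside MITF at those genes, the zinc-finger repressors ZEB1 and ZEB2 belong to opposite ends of a switch between dedifferentiated and pigmented states, and SOX5 can counter SOX10. SOX9 and NFIB are also well known from the epithelial stem cells of the hair follicle that lie beside the melanocyte stem cells.

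Levels are on a log2 scale on which 0 is the 75th percentile of the array's processed signals. They show how 1 probe varies between arrays and cannot be set against the level of another probe. A log2 fold change is K14-SCF Tg minus WT, with its standard error (SE) from limma. Of 55681 non-control probes, between 78.4% and 87.1% were well above background on an array by the scanner's own flag, and 0 spots were saturated. The number of arrays limits the precision.

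The lineage factors gave signal above background in both genotypes, and none was called as changed between WT and K14-SCF Tg by the test. All 19 probes were well above background on all 6 arrays. Between 78.4% and 87.1% of all probes passed this flag on a single array, and all 6 leukocyte markers passed it on every array. The flag alone thus does not show that the sorted cells expressed a factor. Of the 10 genes, each taken at its brightest probe, 0 were called by limma at an adjusted p under 0.05, where 1 of 18368 genes tested was called (0.00544%), the heparanase gene Hpse. Of the 19 probes 0 were called, against 0.0021% of all probes. At an unadjusted p under 0.05 limma counted 0 of the 10 genes, against 5.42% of all genes, and 0 of the 19 probes, against 5.46% of all probes. The log2 fold changes ran from -0.54 (Zeb2) to 1.10 (Sox9) with a median of -0.12, where the median of all genes was -0.01, and 7 were negative, against 51.4% of all genes. The median size of the difference, sign set aside, was 0.19 for the 10 genes and 0.29 for all genes. Adjusted p-values from limma for the 19 probes lay between 0.937 and 1.00.

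How much change these arrays leave room for differed between the factors. The 95% interval of the log2 fold change stayed between -1 and 1, that is within 2-fold either way, for 6 of the 10 genes (Mitf, Sox10, Pax3, Tfap2a, Zeb1 and Sox5), against 32.2% of all genes. For Tfap2b, Zeb2, Sox9 and Nfib it reached past 2-fold on 1 side. The SE ran from 0.23 to 0.62 (median 0.30, against 0.38 over all genes). Bright probes spread less, with a median SD of 0.67 in the dimmest 25% of all probes and 0.31 in the brightest. Of the 19 probes 15 lay in the brightest 25%. The comparisons of size and interval with all genes therefore do not set the factors apart from other bright genes. Differences of known size were also added to randomly drawn probes on simulated arrays of 47709 probes. The test recovered 0% of the 2-fold, 14.8% of the 4-fold and 37.6% of the 8-fold changes. At the spread of all tested probes a 2-fold change was thus not called. Recovery at the narrower spread of the factors (median SD 0.34, against 0.49 over all genes) was not simulated.

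**Figure D1:**
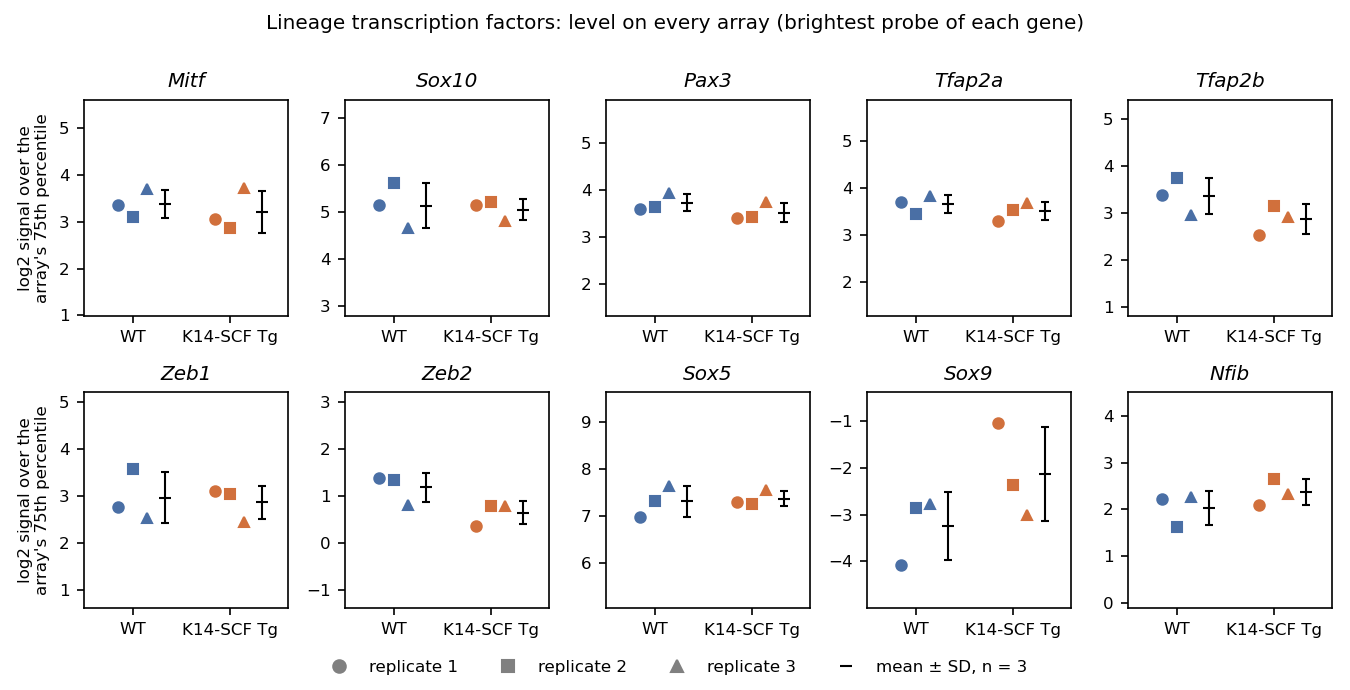
Level of each of the 10 factors at its brightest probe (y axis: log2 signal over the array's 75th percentile, every panel spanning the same number of log2 units) on the 3 WT and 3 K14-SCF Tg arrays, with marker shapes for the replicate number and the mean ± SD (n = 3) in black. The genotypes overlap in every panel but that of Zeb2, and Sox9 has the widest spread.

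Mitf, the master regulator, was read by 2 probes that carry the same accession, and the files do not say which of its isoforms each probe reads. At the brighter probe the levels were 3.35, 3.10 and 3.70 on WT replicates 1 to 3 and 3.05, 2.87 and 3.72 on Tg replicates 1 to 3. The genotypes overlapped, with replicate 3 the highest array of both. The log2 fold change was -0.17 (SE 0.32, 95% interval -0.96 to 0.63), a fold of 0.890 with an interval of 0.512 to 1.54 (limma, adjusted p = 0.996). The second probe gave 2.20, 1.52 and 2.75 in WT and 1.91, 1.35 and 2.60 in Tg, again with replicate 3 highest in both genotypes and replicate 2 lowest. Its log2 fold change was -0.21 (SE 0.46).

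The start from which pigment cells transcribe Mitf is the most downstream of its starts, and the 250 bases before it are shown because SOX10, PAX3, LEF1 and CREB proteins, all measured here, are known to act on this promoter. RefSeq's promoter table (GRCm38.p6) held 11 such windows for 5 of the 10 genes (Mitf, Tfap2a, Tfap2b, Zeb2 and Sox5), 3 of them for Mitf. The last Mitf window lies at chr6:97991533-97991782 on the plus strand, and capitals mark the letters TGACGTCA, the cAMP response element (CRE) to which CREB proteins bind:
Mitf promoter: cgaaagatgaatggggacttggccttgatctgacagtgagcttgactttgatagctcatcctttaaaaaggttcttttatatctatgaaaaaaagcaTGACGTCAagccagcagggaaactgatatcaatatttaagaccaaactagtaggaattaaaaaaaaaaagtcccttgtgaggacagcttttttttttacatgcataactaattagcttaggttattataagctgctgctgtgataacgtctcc
The CRE spans -153 to -146 from the start. It occurred in 1.55% of the 32851 windows of this length and in 1 of the 11 windows of the lineage factors. Searched on both strands, the E-boxes CATGTG (12.3% of all windows) and CACGTG (6.02%), to which MITF binds, and the HMG-box letters AACAAT (9.42%) were in 0 of the 11 windows. The HMG-box letters ACAAAG (16.5% of all windows) and the AP-2 letters GCCNNNGGC (13.7%) were found only at Zeb2 among the 11, the latter in 2 windows that overlap and share the match, and the ZEB letters CACCTG (17.2%) only in another of the Mitf windows. A match describes the letters and does not show that a factor binds there. Letters particular to PAX3 and LEF1 were not searched for, so the capitals are not a full list of possible sites in the printed window.

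The activators of that promoter overlapped between the genotypes as well. Sox10, read by 1 probe, stood at 5.15, 5.61 and 4.65 in WT and 5.14, 5.21 and 4.80 in Tg. Replicate 3 was the lowest array of both genotypes here, and the log2 fold change was -0.08 (SE 0.32, 95% interval -0.86 to 0.69; limma, adjusted p = 1.00). Pax3 stood at 3.60, 3.65 and 3.94 in WT and 3.40, 3.42 and 3.75 in Tg at the brighter of its 2 probes. Tg was below WT at each replicate number, by 0.21, 0.23 and 0.19, while Tg replicate 3 lay above WT replicates 1 and 2, so that the genotypes overlapped. The log2 fold change was -0.21 (SE 0.23, 95% interval -0.79 to 0.36; limma, adjusted p = 0.988), with -0.14 (SE 0.25) at the second probe, where Tg was also lower at each replicate number. A difference of the same sign at every replicate number occurred at 5 of the 19 probes, against 27.9% of all probes, and for 3 of the 10 genes at their brightest probe (Pax3, Tfap2b and Zeb2), against 28.6% of all genes.

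Of the AP-2 pair, which share a DNA-binding domain, Tfap2a differed less. It stood at 3.71, 3.45 and 3.84 in WT and 3.31, 3.53 and 3.69 in Tg, a log2 fold change of -0.15 (SE 0.24; -0.05 without Tg replicate 1, -0.07 without WT replicate 3, -0.26 without WT replicate 2 and -0.25 without Tg replicate 3), with -0.08 (SE 0.25) at its second probe, whose accession is that of another transcript. Tfap2b, known in zebrafish as a marker of melanocyte stem cells, stood at 3.38, 3.75 and 2.97 in WT and 2.53, 3.16 and 2.92 in Tg. Tg was lower at each replicate number, by 0.85, 0.59 and 0.05, but WT replicate 3 lay below Tg replicate 2. Its log2 fold change of -0.50 (SE 0.31, 95% interval -1.25 to 0.26) did not pass (limma, adjusted p = 0.957). Without WT replicate 2 it was -0.31 and without Tg replicate 1 -0.33.

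Zeb2 was the 1 factor whose genotypes did not overlap, and only at 1 of its 2 probes. Levels at that probe were 1.38, 1.34 and 0.81 in WT and 0.35, 0.78 and 0.79 in Tg, so that the lowest WT array exceeded the highest Tg array by little. The log2 fold change was -0.54 (SE 0.27, 95% interval -1.21 to 0.14), a fold of 0.689 (limma, adjusted p = 0.937). Such a lack of overlap was seen in 10.5% of all genes and 10.3% of all probes, and in 1 of the 19 probes here. In the direction of Zeb2, with every Tg array below every WT array, it was seen in 1 of the 10 genes and 5.41% of all genes. At the other probe, which carries the same accession, the levels were -0.93, -1.08 and 0.03 in WT and -1.11, -0.46 and -0.53 in Tg, fully overlapping, with a log2 fold change of -0.04 (SE 0.39). The mean of both probes gave -0.29 (SE 0.25; limma, adjusted p = 0.981). Zeb1, its relative, stood at 2.77, 3.57 and 2.53 in WT and 3.10, 3.03 and 2.45 in Tg, with a log2 fold change of -0.09 (SE 0.37, 95% interval -0.99 to 0.80) that became 0.21 without WT replicate 2 and 0.11 without Tg replicate 3.

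Fibroblasts also express ZEB factors, and their markers are set beside these values. The summed level of 8 fibroblast markers was 6.15, 5.57 and 4.70 on WT replicates 1 to 3 and 4.48, 3.34 and 3.16 on Tg replicates 1 to 3, higher on every WT array than on any Tg array. Of the 8, 7 were well above background on all arrays and 7 had a negative log2 fold change, from the collagen genes Col3a1 (-2.31, SE 0.76) and Col1a2 (-1.87, SE 0.52) to Twist2 (-0.39, SE 0.47). The exception was Pdgfra (1.27, SE 0.99). None passed (limma, smallest adjusted p = 0.564), and their part in the Zeb2 values was not tested. In RNA from whole sorts, fewer cells of a type and less RNA per cell cannot be told apart.

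The SOX factors that act beside or against SOX10 had the smallest and the largest difference of the list. Sox5 stood at 6.98, 7.32 and 7.65 in WT and 7.31, 7.26 and 7.56 in Tg, a log2 fold change of 0.06 (SE 0.26, 95% interval -0.59 to 0.71) whose sign turned under median centring (-0.03). The second Sox5 probe gave 0.45 (SE 0.48), with WT replicate 3 at -0.57 below all other arrays, which lay between 0.53 and 1.25. Sox9 stood at -4.08, -2.86 and -2.78 in WT and -1.04, -2.37 and -3.01 in Tg. WT replicate 1 was the lowest array and Tg replicate 1 the highest, while Tg replicate 3 lay below WT replicates 2 and 3. Its log2 fold change was 1.10 (SE 0.62, 95% interval -0.42 to 2.63), a fold of 2.15 with an interval of 0.746 to 6.19 (limma, adjusted p = 0.948). A difference of at least 2-fold was seen for 1 of the 10 factors and for 11.3% of all genes. Without Tg replicate 1 the value was 0.55, without WT replicate 1, which lay alone on its slide, it was 0.68, and the spread within the genotypes (SD 0.88) was above that of 75% of all probes tested.

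Since Sox9 is also a gene of follicle keratinocytes, their markers are set beside it. Of 9 keratinocyte and hair follicle markers, 7 were well above background on all 6 arrays. Without Trp63, the summed level of the other 8 was 2.73, 4.24 and 2.29 in WT and 3.62, 1.91 and 2.99 in Tg. WT replicate 2 was the highest array and Tg replicate 2 the lowest. The same held for Krt14, 1 of the 8, at 3.28 and 0.51 on these arrays. Of the 9 log2 fold changes 5 were positive and 4 negative, with a median of 0.08. They ran from -0.81 (SE 0.64) for Krt15 to 2.18 (SE 0.72) for Krt17, the 1 marker of the 9 without overlap, which was above background on 2 of 3 WT arrays. None of the 9 passed (limma, smallest adjusted p = 0.844), and their part in the Sox9 values was not tested.

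Nfib, a nuclear factor I protein that in follicle epithelial stem cells restrains the neighbouring melanocyte stem cells, had 5 probes. The brightest stood at 2.22, 1.62 and 2.27 in WT and 2.10, 2.66 and 2.34 in Tg, with WT replicate 2 below the other 5 arrays, a log2 fold change of 0.33 (SE 0.29, 95% interval -0.39 to 1.05; limma, adjusted p = 0.984). Without WT replicate 2 it was 0.12 and without Tg replicate 2 it was 0.18. The other probes gave 0.11 (SE 0.28), 0.39 (SE 0.53), 0.62 (SE 0.55) and -0.32 (SE 0.32). Nfib was the 1 gene of the 6 with several probes whose probes disagreed in sign, which 45.3% of all genes with several probes did.

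**Figure D2:**
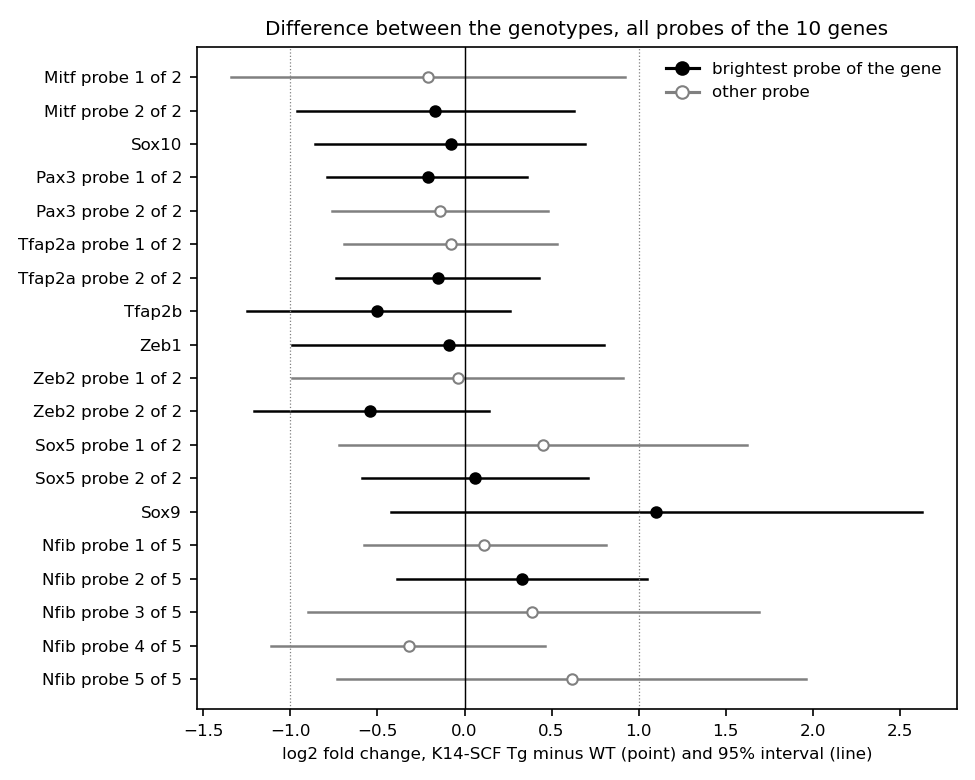
Log2 fold change (K14-SCF Tg minus WT, x axis) with its 95% interval for all 19 probes of the 10 factors, filled for the brightest probe of a gene and open for the others; dotted lines mark 2-fold either way. Every interval includes 0, and the widest among the brightest probes is that of Sox9, from -0.42 to 2.63.

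For several factors the replicate 3 arrays stood apart in both genotypes. Replicate 3 of both genotypes lay in row 2 of the slide and all other arrays in row 1, so row and replicate number cannot be told apart. The row 2 array differed from the mean of the row 1 arrays with the same sign in both genotypes at 12 of the 19 probes, against 58.4% of all probes. At 9 of the 19 the row 2 array lay beyond both row 1 arrays in the same direction in both genotypes, against 32.8% of all probes, and at the brightest probes this held for 6 of the 10 genes, against 34.6% of all genes. Mitf (both probes), Pax3 (both probes), Tfap2a and Sox5 were higher in row 2, and Sox10, Zeb1 and 1 Nfib probe were lower. At Mitf replicate 3 exceeded the mean of replicates 1 and 2 by 0.48 in WT and 0.76 in Tg at the brighter probe, and by 0.89 and 0.97 at the other. In a fit with row as a covariate the row term was 0.62 (SE 0.22) and 0.93 (SE 0.32) at the 2 Mitf probes (limma, adjusted p = 0.478 and 0.469), -0.55 (SE 0.25) for Sox10 and -0.63 (SE 0.30) for Zeb1. The row term passed at 0 probes, of the 19 and of all 47709, and had an unadjusted p under 0.05 by limma at 2 of the 19, against 9.97% of all probes.

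The array-to-array profiles of Mitf and Sox10 were about as far apart as each was from a gene in the middle of all genes. Profiles were compared as the root mean square difference of centred log2 values over the 6 arrays. Ranked by nearness among 18367 other genes, Sox10 stood at rank 9632 from Mitf, and Mitf at rank 10375 from Sox10. Among 18367 other genes the nearest to Mitf were Tent4b (0.049) and Phf8 (0.057), and of the lineage factors Pax3 (0.184) and Tfap2a (0.213) came nearest. For Sox10 they were Vkorc1 (0.038) and Sarm1 (0.047), with Zeb1 nearest among the factors (0.137) and Mitf farther (0.595). For Sox9 they were Rgcc (0.177) and Gng13 (0.202), and the nearest lineage factor was Sox5 (0.868). As 487 genes lay within 0.2 of Mitf and 321 of Sox10, nearness over 6 arrays does not single out particular genes. For Sox9 it was 1 gene, but the measure is not scaled for the spread of a profile. The root mean square of Sox9 around its own mean was 0.905, against 0.325 for Mitf and 0.305 for Sox10. Sox5 was thus nearly as far from Sox9 as a flat profile would be.

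Other members of the same protein families were measured beside the 10 factors. Of 13 relatives 12 were tested (Tfec was not), 0 passed in either direction, and the median log2 fold change was -0.07. Nfix, of the same family as Nfib, had the smallest p, at 0.56 (SE 0.25), with 2.69, 3.06 and 3.19 in WT and 3.54, 3.72 and 3.36 in Tg. Its second probe gave 1.14 (SE 0.34), and the genotypes overlapped at neither. Tfeb, the MITF relative that governs lysosomal genes, followed at -0.43 (SE 0.24), with WT at 3.06, 3.13 and 3.14 and Tg at 2.86, 2.83 and 2.34. Both missed the threshold (limma, adjusted p = 0.919 and 0.946), and genotypes that do not overlap were found for 4 of the 12, against 10.5% of all genes.

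Of 18 regulators and partners 17 were tested (Gli2 was not), 0 passed, and the median was -0.13. At an unadjusted p under 0.05 limma counted 2 of the 17 as lower in Tg, against 2.56% of all genes. The first, Irf4, which works with MITF at the tyrosinase gene, was lower on each Tg array (1.53, 1.18 and 1.32) than on any WT array (1.81, 2.06 and 2.15), a log2 fold change of -0.67 (SE 0.23; limma, adjusted p = 0.861). The second was Sox11, with a log2 fold change of -2.05 (SE 0.79; limma, adjusted p = 0.893), whose signal cleared the background in 2 WT replicates and 1 Tg replicate. Another Sox11 probe, above background on 0 WT arrays and 1 Tg array, was not tested, and its mean was higher in Tg (-7.35) than in WT (-8.27). Of the factors that act on the printed promoter, Creb1 gave -0.22 (SE 0.32), and Lef1 gave 1.90 (SE 1.26) at 1 probe and -0.31 (SE 0.41) at the other.

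Genes that MITF and SOX10 are known to drive were measured to set the output of the circuit beside its factors. Of 17 such targets 16 were tested (Oca2 was not), 0 passed, 8 had a positive and 8 a negative log2 fold change, and the median size was 0.18. The smallest p belonged to Ednrb, the receptor through which endothelins reach pigment cells, at -0.65 (SE 0.21; limma, adjusted p = 0.822). It stood at 4.76, 4.68 and 4.67 in WT and 4.10, 4.16 and 3.91 in Tg, without overlap, and its second probe gave -0.71 (SE 0.29), also without overlap. Kit, the receptor for the ligand that the transgene encodes, followed at -0.46 (SE 0.28; limma, adjusted p = 0.954), with 4.35, 4.47 and 3.97 in WT and 3.87, 4.10 and 3.44 in Tg. Of the 16, Ednrb was the 1 gene without overlap, against 10.5% of all genes.

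Adhesion and transition genes linked to the ZEB factors were tested in 8 of 8 cases, with 0 passing and a median of -0.15. Cdh1, the E-cadherin gene that ZEB proteins repress, gave -0.15 (SE 0.33). Snai1, a zinc-finger repressor of the same target, stood at -2.83, -3.20 and -3.09 in WT and -6.27, -4.16 and -5.06 in Tg, a log2 fold change of -2.12 (SE 0.55; limma, adjusted p = 0.667), with 2 of 3 Tg arrays above background. Twist1 followed at -1.18 (SE 0.79; limma, adjusted p = 0.963). Its levels were -3.76, -2.85 and -1.18 in WT and -3.12, -3.38 and -4.83 in Tg, and the genotypes overlapped. Of the 8 genes 6 had a negative and 2 a positive log2 fold change. Fn1 gave 1.10 (SE 0.86) and Vim -0.04 (SE 0.22). Fibroblasts express Snai1 and Twist1, and the fibroblast marker sums given beside Zeb2 were also lower on the Tg arrays. Their part in these values was not tested.

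**Figure D3:**
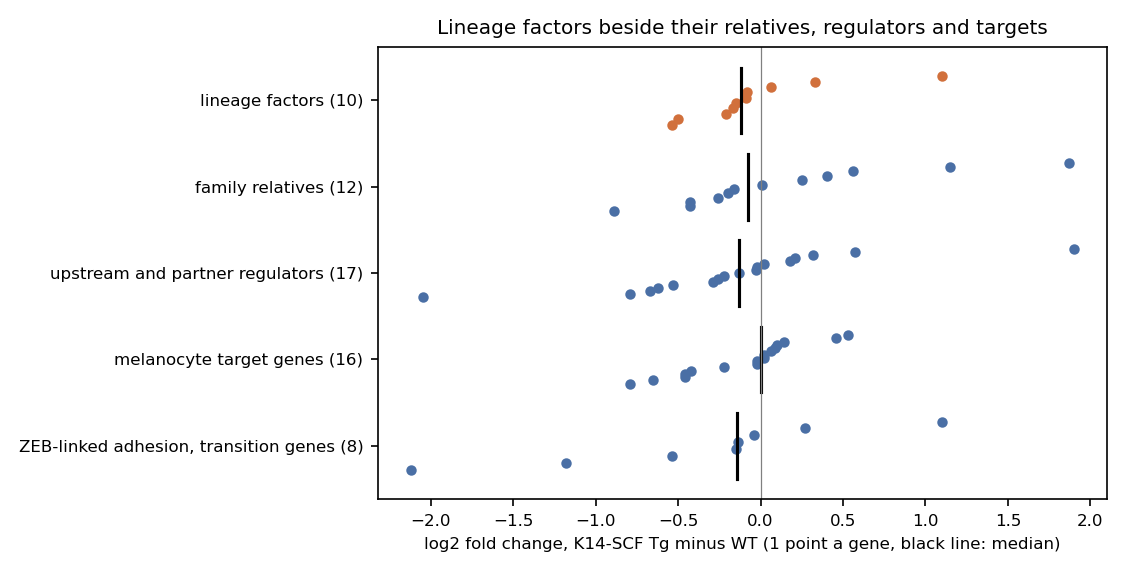
Log2 fold change (K14-SCF Tg minus WT, x axis) of each tested gene of the lineage factors (10), their family relatives (12), regulators and partners (17), melanocyte targets (16) and ZEB-linked genes (8), with the median of each list as a black line. Medians lie between -0.15 and 0.00, and the points of the lineage factors other than Sox9 lie between -0.54 and 0.33.

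The markers of the labelled cell type gave signal above background on every array, as did many markers of other cell types. All 6 defining melanocyte markers (Tyr, Dct, Tyrp1, Pmel, Mlana and Kit) were well above background on all 6 arrays, and their summed level lay between 7.72 and 8.16 in WT and between 7.73 and 8.02 in Tg. Of 7 Schwann cell markers, which matter here because Schwann cells share Sox10 with pigment cells, 5 were above background on all arrays. Their sum lay between 5.44 and 6.01 in WT and between 5.97 and 6.01 in Tg. All 6 leukocyte markers were also well above background on all 6 arrays. So were 4 of 6 endothelial, 4 of 5 muscle and pericyte and 2 of 3 tested mast cell markers. The flag thus does not tell the cell types apart. Endothelial sums lay between 0.84 and 2.11 in WT and between 1.06 and 1.13 in Tg, leukocyte sums between 0.43 and 2.42 and between 0.49 and 1.45, mast cell sums (3 of 5 markers tested) between -1.73 and -0.87 and between -1.03 and -0.58, and muscle and pericyte sums between 0.56 and 0.82 and between -0.03 and 1.82. The melanocyte, Schwann cell, endothelial, leukocyte, mast cell and muscle sums overlapped between the genotypes. None of these markers passed (limma, smallest adjusted p = 0.887).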

How the data were processed

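The 6 arrays from sorted melanocyte stem cells were analysed, 3 WT and 3 K14-SCF Tg. Per the file headers, the deposited intensity values are background-subtracted, detrended processed signals and median spot and background signals from Agilent Feature Extraction 10.7.1.1 (probe design on mm9), not normalized between arrays. The deposited flags are 0 or 1. The authors' value table is a linear ratio, processed signal over 1 constant per array (1404.6 to 1678.0, near the 75th percentile; at least 99.9% of values above 1 within 1%; column medians 0.169 to 0.188), for which the headers and labels state no definition.

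Control and outlier spots were left out, spots of a probe averaged, and log2 signals centred on each array's 75th percentile. Probes well above background on at least 3 arrays (47709, after 3 were left out as outliers) were tested with limma 3.58.1 in R 4.3.3 (2-sided, no covariates, Benjamini-Hochberg over all probes, threshold 0.05). Probes were named through RefSeq accessions (28331 of 29786 matched, GRCm38.p6 table). A gene is given at its tested probe with the highest mean. Marker sums add linear signals before log2. The steps were tested on simulated data. The members and lists were chosen with earlier results of these data known. Every member is named, and of other lists the 2 genes with the smallest p. Creb1, Lef1, Cdh1, Fn1, Vim and the single fibroblast and keratinocyte markers given with values were chosen after their values were seen.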

Additional observations from a re-analysis of the deposited data

How the results depend on the processing

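Under 19 other ways of processing the arrays and 1 chosen after the data were seen (both arrays of slide row 2 left out), 0 lineage factors passed, as in the reported fit. WT replicate 1 lay alone on its slide, so slide as a block and leaving out that array are the same fit and are counted as 2 of the 19. Of 200 recomputed values 191 kept their sign, and 6 genes (Pax3, Tfap2a, Tfap2b, Zeb2, Sox9 and Nfib) kept it in all. Sox5 turned to -0.03 under median centring and to -0.11 with slide as a block. Leaving out 1 array at a time gave -0.42 to 0.00 for Mitf, -0.33 to 0.15 for Sox10, -0.31 to 0.21 for Zeb1, -0.11 to 0.23 for Sox5, -0.33 to -0.11 for Pax3, -0.26 to -0.05 for Tfap2a, -0.69 to -0.31 for Tfap2b, -0.72 to -0.39 for Zeb2, 0.55 to 1.54 for Sox9 and 0.12 to 0.46 for Nfib; the cause was not tested. Without row 2, Sox9 was 1.77 (SE 0.71; limma, adjusted p = 0.838) and Zeb2 -0.80 (SE 0.30; limma, adjusted p = 0.833). Without WT replicate 3, Zeb2 was -0.72, and 1 factor rather than 0 had an unadjusted p under 0.05 by limma. The count over all genes went from 1 to 0 in 14 of these. With a replicate block, which treats same-numbered arrays as pairs, 0 factors passed (median -0.12; Zeb2 -0.54, SE 0.30). Deviations of same-numbered arrays correlated at 0.019, 0.052 and 0.131 across probes, while WT replicate 1 was closer to Tg replicate 2 (0.025) and WT replicate 2 to Tg replicate 1 (0.055), so the numbers were not taken as pairs. The replicate 3 arrays, with the highest value, also share a slide row. The spread (median SD 0.67 in the dimmest 25% of probes, 0.31 in the brightest) limits dim genes most, while 15 of the 19 probes lay in the brightest 25%.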

Other observations

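Trp63, the keratinocyte regulator, read differently at its 2 probes. The probe with the higher mean stood between 6.76 and 7.14 on all 6 arrays (log2 fold change 0.09, SE 0.22), while the other cleared the background in 2 WT replicates and 1 Tg replicate, with a log2 fold change of -1.93 (SE 0.84; limma, adjusted p = 0.918). The keratinocyte marker sums are therefore given without it. With it, the sums lay between 6.84 and 7.19 on all arrays.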
